A study of Mus musculus with 16 samples.

Results

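The nesprin genes Syne1, Syne2 and Syne3 are described here by where THOC5 immunoprecipitation peaks lie in them. They are 3 of the 4239 genes with at least 1 peak in any of 8 peak lists, and hold 534 of the 28998 peaks (1.84%), of which 364 lie in Syne1, 168 in Syne2 and 2 in Syne3. A peak was given to the gene of the RefSeq transcript that its deposited annotation names, and peaks named for the microRNA gene Mir5101, which lies inside Syne2, were counted to Syne2. The genes were chosen by their numbers of peaks in these lists, so those numbers, their recurrence and their strength are a description, without a test of the genes against others.

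The study asked which RNAs are bound by THOC5, a subunit of the THO complex that links transcription to mRNA export, in primary mouse vascular smooth muscle cells with and without osteogenic medium. The 8 immunoprecipitates, each with an input library that was not analysed here, are of cells with THOC5 overexpression in osteogenic medium (THOC5 OE), cells with GFP overexpression in osteogenic medium (GFP OE), wild-type cells in osteogenic medium (Pi) and wild-type cells in growth medium (Ctrl), with 2 lists each. The labels give the genotype of GFP OE cells as WT, and name neither the vehicle of overexpression, nor the mouse strain, nor whether replicates are separate cultures, so every p measures only the spread between these samples. List lengths were 4618 and 4240 peaks for THOC5 OE, 3711 and 2572 for GFP OE, 2666 and 3793 for Pi and 2603 and 4795 for Ctrl, and read depth is unknown. Neither inputs nor transcript levels entered here, and whether the deposited peaks were called against the inputs is not stated. A peak may therefore not be corrected for the level of its transcript. No strand is given, so a gene and an overlapping one on the other strand cannot be told apart. The lowest score in a list, on the scale of the authors' caller, was 6.72 and 6.31 for THOC5 OE, 10.2 and 12.6 for GFP OE, 20.5 and 14.9 for Pi and 29.0 and 15.9 for Ctrl, so the lists of overexpressing cells reach lower scores. All peaks of a list are equally wide, 415 to 553 bases depending on the list. Of 9 smooth muscle markers, 5 had a peak in some list and Mylk had one in all 8, while Myh11, Cnn1, Des and Myocd had none. None of 5 endothelial and none of 5 leukocyte markers had a peak, 1 of 5 fibroblast markers did (Pdgfra, in Pi replicate 1), and a peak list shows no level of a transcript. Of 6 osteochondrogenic markers 1 did, the bone transcription factor gene Runx2, with 1 peak in GFP OE replicate 2, in each Pi list and in no Ctrl list, a pattern of Pi against Ctrl that 3.34% of 3505 genes had. Thoc5 itself had 1 peak, in Ctrl replicate 2.

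Nesprins are membrane proteins of the nuclear envelope. Their C-terminal KASH domain binds SUN proteins in the space between the nuclear membranes and so forms the LINC complex, which couples the nucleus to the cytoskeleton. Syne1 encodes nesprin-1 and Syne2 nesprin-2, whose giant forms bind actin through N-terminal calponin homology domains and span the distance to the membrane with a long rod of spectrin repeats. Both genes also make short forms from internal start sites. Syne3 encodes the smaller nesprin-3, which binds plectin and thereby intermediate filaments.

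The first sequences shown are those of the microRNA inside Syne2, shown because 73.8% of the Syne2 peaks carry its name in the deposited annotation. The RefSeq entry for Mir5101 (GRCm38.p6, plus strand, chr12:75909103-75909185) gives a hairpin of 83 bases, with the mature microRNA in capitals, and a mature form of 22 bases (chr12:75909154-75909175), with its seed, bases 2 to 8, in capitals.
Mir5101 hairpin: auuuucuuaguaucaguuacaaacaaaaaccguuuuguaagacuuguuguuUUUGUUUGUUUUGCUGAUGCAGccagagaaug
mmu-miR-5101: uUUGUUUGuuuugcugaugcag

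The other sequences are the 250 bases before the RefSeq start of transcription of Syne1 (chr10:5550693-5550942, minus strand) and of Syne2 (chr12:75818068-75818317, plus strand; both GRCm38.p6, from RefSeq), shown because the first site of each gene lies directly downstream of them. Every CG pair is in capitals.
Syne1 upstream window: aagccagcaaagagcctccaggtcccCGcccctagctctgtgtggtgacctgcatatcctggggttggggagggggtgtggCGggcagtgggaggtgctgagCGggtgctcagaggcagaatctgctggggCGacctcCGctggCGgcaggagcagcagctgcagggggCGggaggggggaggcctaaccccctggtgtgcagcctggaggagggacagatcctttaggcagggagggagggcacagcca
Syne2 upstream window: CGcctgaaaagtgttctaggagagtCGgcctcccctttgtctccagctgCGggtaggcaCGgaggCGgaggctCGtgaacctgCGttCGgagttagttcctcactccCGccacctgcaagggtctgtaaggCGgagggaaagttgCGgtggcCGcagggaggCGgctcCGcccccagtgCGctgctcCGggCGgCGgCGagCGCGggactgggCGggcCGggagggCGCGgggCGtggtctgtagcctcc

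The Syne2 window holds 26 CG pairs and the Syne1 window 7, where the median over 32851 windows of this length was 6. Both hold GGGCGG or its reverse complement CCGCCC, as do 32.7% of all windows, and neither holds TATAAA or TTTATA, which 12.4% do. A match is a description of the letters and not a binding site. No peak overlapped either window. Downstream of the Syne2 start, all 8 lists had a peak in intron 1 of 115, with its middle 294 to 350 bases from the start and its nearest edge at 55 bases (chr12:75818373-75818944 over all lists). Downstream of the Syne1 start, 6 lists had a peak in intron 1, with its middle 272 to 376 bases away: both lists of THOC5 OE and both of GFP OE, and replicate 2 of Pi and of Ctrl (chr10:5550096-5550643). The start of Syne3 and the 2 internal starts of Syne1 in the table of promoter windows had no peak within 1 kb. The deposited annotation knows a further internal start of Syne1, at a site where all 8 lists have a peak (chr10:5194060-5195083), although these peaks do not all overlap each other.

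Syne1 (chr10:5020192-5550692, minus strand, 530501 bases) carried 49 and 40 peaks for THOC5 OE, 52 and 42 for GFP OE, 31 and 56 for Pi and 36 and 58 for Ctrl. The conditions overlap, and the replicates of Pi and of Ctrl lie further apart than the means of any 2 conditions. The means were 44.5 ± 6.36 for THOC5 OE, 47.0 ± 7.07 for GFP OE, 43.5 ± 17.7 for Pi and 47.0 ± 15.6 for Ctrl (SD, n = 2 each). As a share of its list, Syne1 held 1.06% and 0.943% for THOC5 OE, 1.40% and 1.63% for GFP OE, 1.16% and 1.48% for Pi and 1.38% and 1.21% for Ctrl. Both shares in THOC5 OE lie below the other 6, and both THOC5 OE lists are among the 3 longest.

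Syne2 (chr12:75818318-76110928, plus strand, 292611 bases) carried 18 and 14 peaks for THOC5 OE, 22 and 12 for GFP OE, 15 and 29 for Pi and 26 and 32 for Ctrl. Ctrl lies above both lists of THOC5 OE and of GFP OE and overlaps with Pi. The means were 16 ± 2.83 for THOC5 OE, 17.0 ± 7.07 for GFP OE, 22.0 ± 9.90 for Pi and 29.0 ± 4.24 for Ctrl (SD, n = 2 each). Its share of the list was 0.390% and 0.330% for THOC5 OE, 0.593% and 0.467% for GFP OE, 0.563% and 0.765% for Pi and 0.999% and 0.667% for Ctrl.

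Syne3 (chr12:104929933-105010587, minus strand) had 1 peak in each Ctrl list and none in THOC5 OE, GFP OE or Pi. Both peaks lie in the 3′ UTR, in exon 19 of 19, within chr12:104931231-104932053, at percentiles 2.77 and 33.0 of their lists by the authors' score. Their scores of 33.4 and 38.7 are above the lowest score of all 8 lists. The annotation names both peaks for the neighbouring gene Clmn. Of the 3505 genes bound in Pi or Ctrl, 3.62% were bound in each Ctrl list and no Pi list, like Syne3, and 3.34% the other way, while Syne1 and Syne2 were bound in all 8 lists, as were 9.53% of 4239 genes. No nesprin gene was bound on 1 side alone of any other comparison. The shares of all genes were there 1.18% for GFP OE against THOC5 OE, 3.79% for GFP OE against Pi and 6.49% for Pi against GFP OE. They were 1.2% for all lists of overexpressing cells against Pi and Ctrl, and 0.661% the other way.

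**Figure D1:**
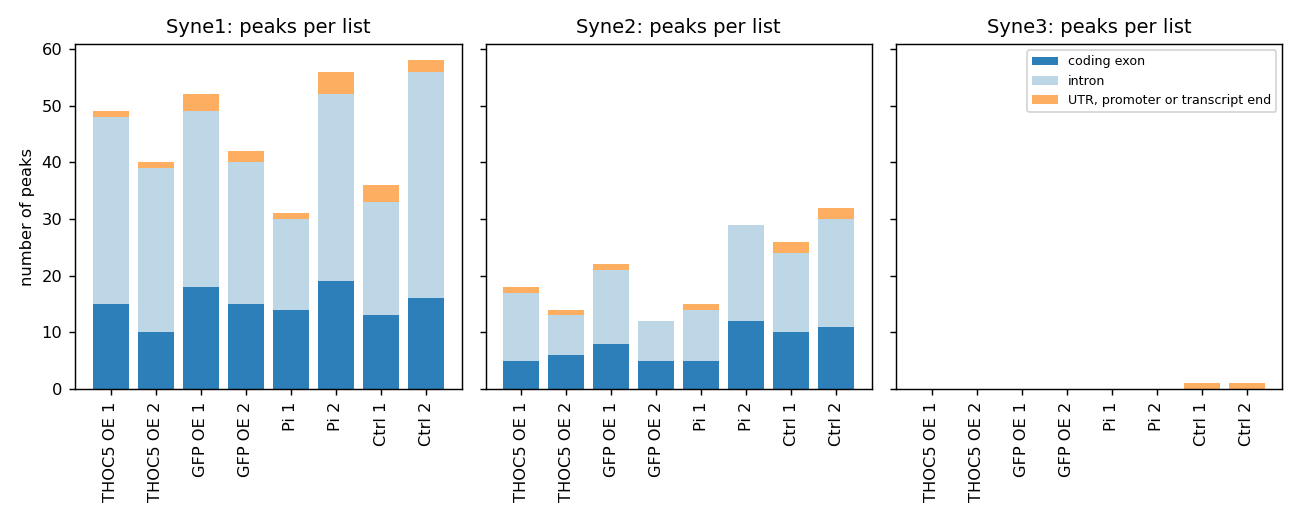
Number of peaks (vertical axis) in Syne1, Syne2 and Syne3 in each of the 8 lists, with bars divided into coding exons, introns and other classes. Syne1 ranges from 31 to 58 peaks per list and Syne2 from 12 to 32, and Syne3 has 1 peak in each Ctrl list.

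For its length Syne1 is densely covered, with 8.58 ± 1.84 peaks per 100 kb (SD, n = 8), against 7.18 ± 2.54 for Syne2. Among the 1012 bound genes of at least 100 kb, Syne1 ranked at 2 and Syne2 at 7 by mean density. Other giant genes of the cytoskeleton were less dense: the plakin genes Dst (3.81 ± 0.912) and Macf1 (2.99 ± 0.954), which link actin, microtubules and intermediate filaments, and the dystrophin relative Utrn (mean 4.59). Their peaks were stronger than those of Syne1 in each of the 8 lists. The median percentile was 98.6 to 99.5 in Dst, 84.8 to 90.4 in Utrn and 66.6 to 93.6 in Macf1. In Syne2 that median was 70.1 to 81.4 and in Syne1 37.8 to 63.1, lower in Syne1 than in Syne2 in each of the 8 lists. These ranks and densities come from the numbers that chose the genes and were not tested.

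Introns held 227 of the 364 Syne1 peaks (62.4%) and coding exons 120 (33.0%), with 10 in the 3′ UTR, 3 in the 5′ UTR and 4 at an internal start site. In Syne2, introns held 98 of 168 (58.3%), exons 62 (36.9%), the 3′ UTR 6 and the end of the Mir5101 transcript 2. Over all 28998 peaks, introns held 56.5% and exons 30.3%. Annotated repeats held 6.87% of the Syne1 peaks and 2.98% of the Syne2 peaks, against 8.06% of all peaks.

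Some sites were placed in an exon or in an intron depending on the list. Sites here are peaks joined over all lists wherever they overlap. Of the 75 Syne1 sites, 23 were placed in an exon in some lists and in an intron in others. A further 12 lay in exons alone and 37 in introns alone. In Syne2 10 of 38 sites changed class in this way. Such changes were not counted in other genes or over the series, so they only describe Syne1 and Syne2. The intron numbers of Syne1 come from 3 RefSeq transcripts with 145, 54 and 31 introns, and the exon numbers from a transcript with 146 exons.

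The exon share of Syne1 peaks was 30.6% and 25% for THOC5 OE, 34.6% and 35.7% for GFP OE, 45.2% and 33.9% for Pi and 36.1% and 27.6% for Ctrl. THOC5 OE lay below GFP OE without overlap, with a difference of -7.36 percentage points (two-sided exact permutation p = 0.333, the lowest that 2 lists against 2 allow; adjusted 0.8), and Pi overlapped with Ctrl (difference 7.70 points, exact p = 0.667, adjusted 1). Without THOC5 OE replicate 2 the first of these differences was -4.55. Every list moved the second by over 1.5 times: it was 2.08 without Pi replicate 1, 13.3 without Pi replicate 2, 11.96 without Ctrl replicate 1 and 3.43 without Ctrl replicate 2. In Syne2 the exon share was 27.8% and 42.9% for THOC5 OE, 36.4% and 41.7% for GFP OE, 33.3% and 41.4% for Pi and 38.5% and 34.4% for Ctrl, and every pair of conditions compared overlapped. Adjusted p-values are by Benjamini-Hochberg over 24 contrasts, which are 3 measures in Syne1 and Syne2 under 4 comparisons, and none passed 0.05.

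The strongest Syne1 peak of every list lay in exon 77 of 146, in sites at 60.6% and 60.8% of the gene's length from the start. Its score was 633.5 and 751.7 for THOC5 OE, 510.9 and 604.5 for GFP OE, 455.0 and 394.9 for Pi and 452.3 and 488.3 for Ctrl, on a scale whose comparability between lists is not given. By percentile within the list it stood at 97.9 and 98.4 for THOC5 OE, 97.4 and 97.5 for GFP OE, 96.5 and 96.8 for Pi and 96.3 and 97.6 for Ctrl. The exon carried 2 neighbouring sites, chr10:5227756-5228783 in 6 lists and chr10:5228853-5229391 in 4. THOC5 OE replicate 1 and Ctrl replicate 1 had both, and the other 6 lists had 1 of them, so the exon has a peak in every list although neither site does. The second site, taken alone, stands in each THOC5 OE list but no GFP OE list, and in each Ctrl list but no Pi list, while the GFP OE and Pi lists had their peak at the first site of the same exon.

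In Syne2 the site in exon 30 of 116 (chr12:75930634-75931271) was present in all 8 lists, at percentiles 95.5 and 95.7 for THOC5 OE, 92.6 and 93.0 for GFP OE, 92.7 and 94.6 for Pi and 93.7 and 95.7 for Ctrl. It was the strongest Syne2 peak in both THOC5 OE lists, GFP OE replicate 1 and Pi replicate 2. In the other 4 lists the strongest lay in exon 48, at percentiles 97.1 in GFP OE replicate 2, 97.6 in Pi replicate 1, and 97.3 and 98.1 in Ctrl. Exon 48 had no peak in THOC5 OE, GFP OE replicate 1 or Pi replicate 2.

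**Figure D2:**
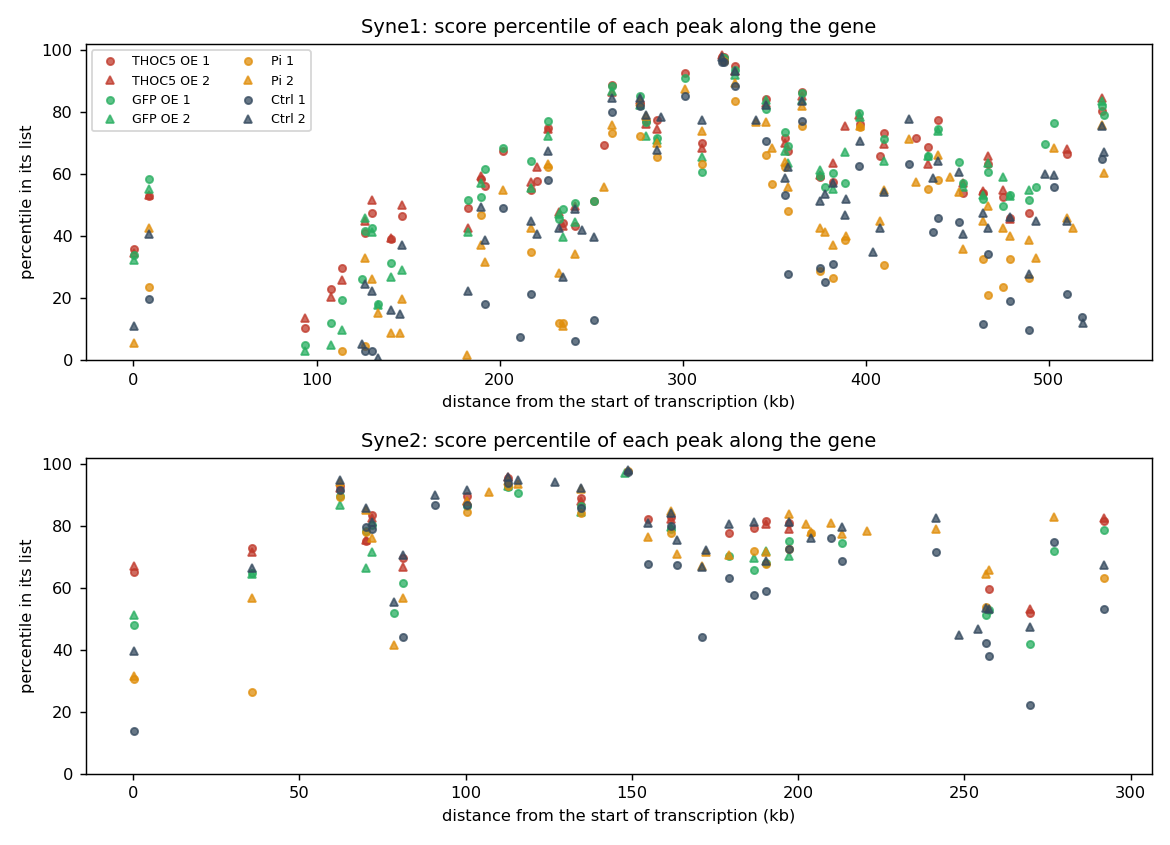
Each point is a site of Syne1 (top) or Syne2 (bottom) in a list that has a peak there. The horizontal axis gives the mean distance of the site's peaks over all lists from the start of transcription (kb). The vertical axis gives the highest percentile of a peak of that list in the site. Colours stand for conditions, circles for replicate 1 and triangles for replicate 2. The highest Syne1 points stand at exon 77, about 322 kb from the start, and no Syne1 peak lies between 8.85 and 93.9 kb.

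Peaks spread over most of Syne1 and Syne2, but unevenly in strength. In Syne2, GFP OE replicate 2 had no peak beyond 67.4% of the length. In Syne1 the median percentile of the peaks between 50% and 75% of the gene's length was the highest of the gene's 4 parts of equal length in each of the 8 lists: 77.6 and 76.1 for THOC5 OE, 75.2 and 71.7 for GFP OE, 64.4 and 74.8 for Pi and 70.5 and 74.0 for Ctrl. In the first 25% it was 35.9 and 34.6 for THOC5 OE, 30.05 and 32.4 for GFP OE, 4.39 and 29.5 for Pi and 2.77 and 22.3 for Ctrl. The longest stretch of Syne1 between neighbouring peaks measured 85227 to 85255 bases in THOC5 OE and GFP OE and 105038 to 117925 bases in Pi and Ctrl. It begins in each of the 8 lists at the site around exon 2 (chr10:5541566-5542397), which was present in all 8 lists. In Syne2 the part between 25% and 50% of the length had the highest median percentile in each of the 8 lists, from 84.6 in Pi replicate 1 to 91.9 in Ctrl replicate 2. In GFP OE replicate 2 that part held only 2 peaks, and the last 25% had none to compare.

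The Syne1 peaks of overexpressing cells lay nearer to the start of the gene. The mean position, in percent of the gene's length from the start of transcription, was 55.9 and 54.2 for THOC5 OE and 57.9 and 54.8 for GFP OE, against 61.5 and 61.7 in Pi and 64.3 and 60.9 in Ctrl. The 4 lists of overexpressing cells do not overlap with the other 4. The difference was -6.37 percentage points, from 55.7 ± 1.63 in overexpressing cells against 62.1 ± 1.54 in the others (SD, n = 4 each; two-sided exact permutation p = 0.0286, the lowest that 4 lists against 4 allow; adjusted 0.343). All overexpressing cells were in osteogenic medium and the others include Ctrl in growth medium. Against Pi alone, GFP OE differed by -5.23 points without overlap (exact p = 0.333, adjusted 0.8), THOC5 OE and GFP OE overlapped (-1.25 points, exact p = 0.667, adjusted 1), and so did Pi and Ctrl (-1.03 points, exact p = 1, adjusted 1). Both of these last differences changed direction without 1 list, GFP OE replicate 1 (0.326) and Ctrl replicate 1 (0.706).

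The first 25% of Syne1 held 7 and 7 peaks in THOC5 OE and 8 and 7 in GFP OE, against 3 and 4 in Pi and 3 and 5 in Ctrl. That was 14.3% and 17.5% of the Syne1 peaks in THOC5 OE and 15.4% and 16.7% in GFP OE, against 9.68% and 7.14% in Pi and 8.33% and 8.62% in Ctrl. There, 2 sites were present in all 4 lists of overexpressing cells and in none of Pi or Ctrl: chr10:5456437-5457070 in intron 3 of 31, 93.9 kb from the start, with scores of 13.0 to 15.2, and chr10:5442652-5443230 in intron 4 of 31, 108 kb from the start, with scores of 16.1 to 21.3. They are 2 of 75 Syne1 sites (2.67%), where 0.874% of all 12362 sites of the series had this pattern, and Syne2 had none. The opposite pattern, held by 0.283% of all sites, occurred in neither gene. All scores of the first site lie below the lowest score of Pi replicate 1 and of both Ctrl lists, and all scores of the second below that of Ctrl replicate 1, and those lists hold no peak of so low a score. Both sites fall away when every list is restricted to scores of at least 29.0. With every list so restricted, to the highest of the 8 lowest scores, the first 25% held 4 and 4 peaks in THOC5 OE and 4 and 4 in GFP OE, against 1 and 3 in Pi and 3 and 3 in Ctrl, and the difference in mean position was -5.75 points (exact permutation p = 0.0286, adjusted 0.343). With every list cut to its 2572 strongest peaks the first 25% held 2 and 3 peaks in THOC5 OE and 4 and 7 in GFP OE, against 2 and 2 in Pi and 3 and 0 in Ctrl, so that the groups overlap, and the difference in mean position was -7.03 points (exact permutation p = 0.0286, adjusted 0.457). With only peaks at or above the median score of their list it was -2.36 points (exact p = 0.257, adjusted 0.727).

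The median percentile of the Syne1 peaks was 63.1 and 61.1 for THOC5 OE and 60.4 and 58.2 for GFP OE, against 46.9 and 47.8 in Pi and 37.8 and 49.2 in Ctrl. Overexpressing cells were higher by 15.3 without overlap (exact permutation p = 0.0286, adjusted 0.343). A percentile depends on how many weak peaks a list holds. With every list cut to its 2572 strongest peaks the difference was 11.03 (exact p = 0.143, adjusted 0.667). The share of Syne1 peaks at or above the median score of their list was 73.5% and 70% for THOC5 OE and 76.9% and 69.0% for GFP OE, against 45.2% and 50% in Pi and 38.9% and 48.3% in Ctrl. In Syne2 the median percentile was 81.1 and 81.4 for THOC5 OE, 73.2 and 71.7 for GFP OE, 77.6 and 78.0 for Pi and 70.1 and 80.1 for Ctrl. THOC5 OE lay above GFP OE by 8.84 without overlap (exact p = 0.333, the smallest possible; adjusted 0.8), and overexpressing cells and the others overlapped (difference 0.40, exact p = 0.914, adjusted 1).

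**Figure D3:**
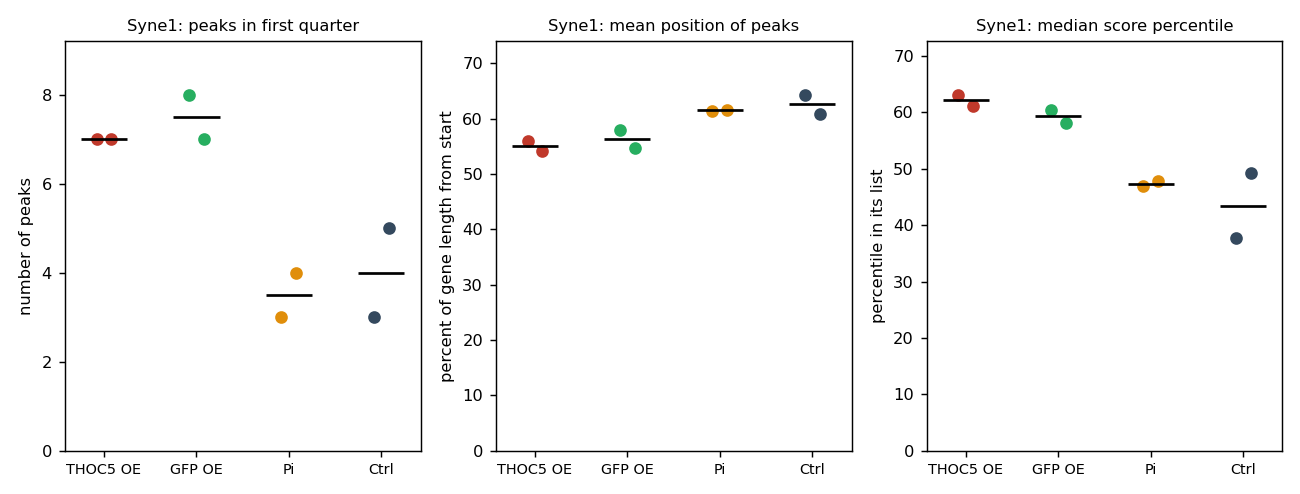
Syne1 in each list by condition: the number of peaks in the first 25% of the gene (left), the mean position of all its peaks in percent of the gene's length (middle) and the median percentile of their scores (right), with points for lists and lines for the mean of 2. THOC5 OE and GFP OE have 7 or 8 peaks in the first 25% and Pi and Ctrl 3 to 5.

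The mean position of the Syne2 peaks was 48.6 and 43.5 for THOC5 OE and 51.9 and 39.1 for GFP OE, against 49.1 and 52.4 in Pi and 56.4 and 53.9 in Ctrl. The difference of overexpressing cells from the others had the same direction as in Syne1 (-7.16 points, exact permutation p = 0.0571, adjusted 0.457), with overlap. Pi lay nearer to the start than Ctrl without overlap (-4.44 points, exact p = 0.333, the smallest possible; adjusted 0.8). The difference of Pi from Ctrl was -0.70 with peaks given to the nearest gene, -2.79 without Pi replicate 1 and 1.54, the other direction, among peaks at or above the median score of their list.

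Peaks in these genes came back at the same places. In Syne1 15 of 75 sites (20.0%) and in Syne2 8 of 38 (21.1%) were present in all 8 lists, where 2.62% of the 12362 sites of the series were, and 9 Syne1 sites (12%) and 7 Syne2 sites (18.4%) stood in 1 list only, where 49.1% of all sites did. For comparison, Dst had 6 of 23 sites in all 8 lists, Utrn 1 of 42 and Macf1 1 of 19. When a site needed an overlap of 50% of both peaks, 11 Syne1 and 7 Syne2 sites were in all 8 lists. With lists cut to 2572 peaks there were 10 and 7, and with gaps of up to 200 bases merged 17 and 8. The Syne1 sites present in all 8 lists include, besides that around exon 2 (percentiles 19.6 to 58.5), sites in exon 40 (chr10:5323766-5324329, 58.1 to 77.3) and at exon 55 (chr10:5288908-5289658, 73.3 to 88.8). They also include sites at exon 78 (chr10:5221795-5222443, 83.7 to 94.8), in exons 87 and 88 (chr10:5204745-5205685, 66.2 to 84.1) and in intron 3 of 54 (chr10:5185356-5185949, 75.7 to 86.7). The site around intron 56 of 145 stood at 72.4 to 85.1. Others stood low in some lists, at exon 8 (2.77 to 45.7), exon 126 (11.6 to 54.6), exon 127 (21.0 to 65.7) and exon 129 (19.0 to 53.2). So did those in intron 34 of 145 (21.3 to 64.3), in intron 5 of 54 (28.8 to 61.3) and around intron 97 of 145 (26.5 to 63.75). The site at chr10:5194060-5195083 had a peak in all 8 lists too, but not at 1 shared place. The peaks of Ctrl replicate 2 (chr10:5194158-5194573) and Pi replicate 2 (chr10:5194578-5195017) do not overlap. Its peaks were annotated as the start of an internal transcript in GFP OE replicate 1, both Pi lists and Ctrl replicate 1, and as intron 1 of 54 elsewhere. The former begin at 5194521 to 5194578, and the latter end at 5194573 to 5194599.

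The Syne2 sites in all 8 lists were, besides that in intron 1 and that in exon 30, at exon 6 (chr12:75880196-75880816, percentiles 86.6 to 94.9), around exon 7 (chr12:75887824-75888748, 66.3 to 85.8), at exon 45 (chr12:75952618-75953365, 84.2 to 92.2), in intron 52 (chr12:75979876-75980433, 77.6 to 84.9), in intron 64 (chr12:76008267-76008825, 59.0 to 81.4) and in exon 66 (chr12:76015373-76015934, 70.4 to 83.9). Of the 38 Syne2 sites, 14 (36.8%) had no peak in any list of overexpressing cells, a share close to the 36.1% of all 12362 sites. In Syne1 15 of 75 sites (20.0%) had none there. No peak in Pi or Ctrl was found for 1 Syne2 site (2.63%) and 2 Syne1 sites (2.67%), against 30.9% of all sites. These counts were not tested, and sites seen in 1 list lack peaks on 1 side by construction. The 3′ UTR of Syne2 had a peak in 6 lists, at 53.1 to 82.4, and that of Syne1 a peak at chr10:5021284-5022029 in 7, at 65.0 to 84.6.

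**Figure D4:**
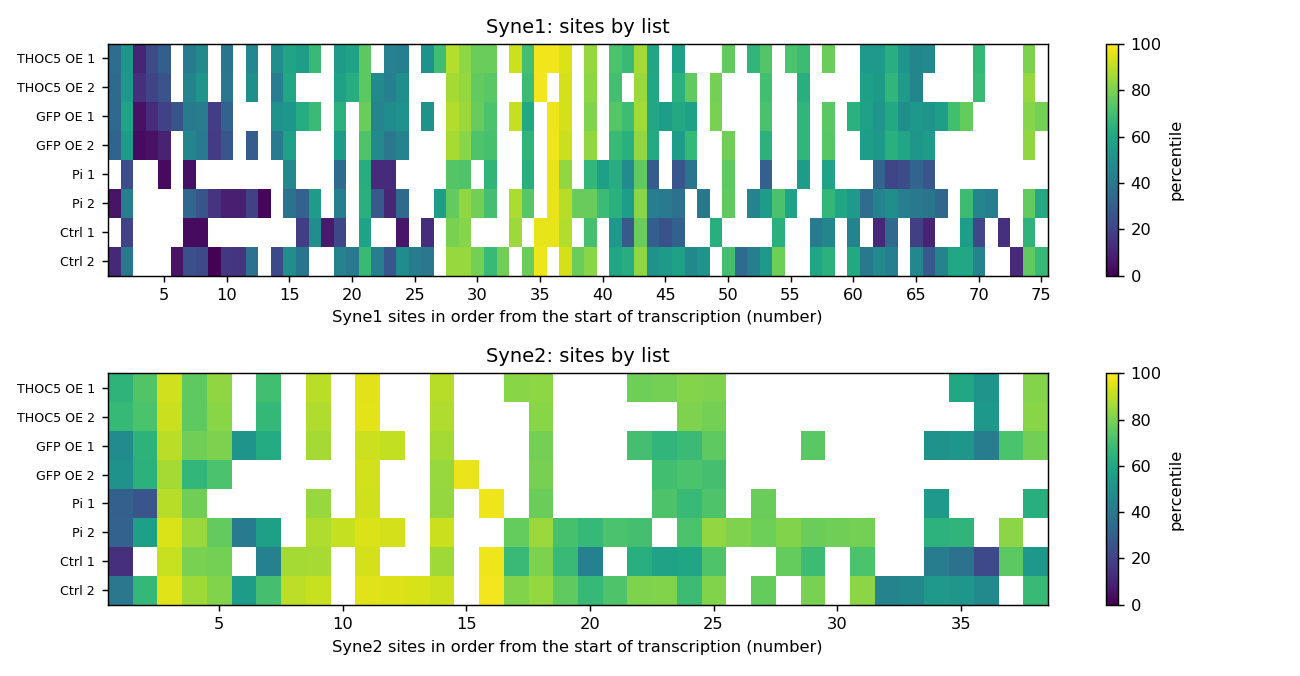
Sites of Syne1 (top) and Syne2 (bottom) in order from the start of transcription (horizontal axis, site number), with a row for each list and the colour giving the percentile of the peak within its list, white where there is none. Of the 75 Syne1 sites 15 and of the 38 Syne2 sites 8 are filled in every row.

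Within a condition, a peak counted as shared where the other replicate had a peak in the same site. Sites join peaks of all lists, so the peaks of the replicates need not overlap each other. Of the Syne1 peaks, 75.5% and 92.5% were shared in THOC5 OE and 76.9% and 95.2% in GFP OE. In Pi 90.3% and 50% were shared, and in Ctrl 83.3% and 51.7%. For all peaks these shares were 56.5% and 61.5% for THOC5 OE, 36.1% and 52.0% for GFP OE, 42.2% and 29.7% for Pi and 58.9% and 32.0% for Ctrl. The longer list of a pair has the lower share for Syne1 in each condition. In Syne2 the shares were 77.8% and 100% for THOC5 OE, 50% and 91.7% for GFP OE, 80.0% and 41.4% for Pi and 92.3% and 75% for Ctrl.

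Sites that set 2 conditions apart completely were few. Of 60 Syne1 sites with a peak in THOC5 OE or GFP OE, 3 were in each THOC5 OE list and no GFP OE list (5%, where 8.21% of all sites were) and 1 the other way (1.67%, where 1.39% were), and none of 24 Syne2 sites was either. Of 73 Syne1 sites in Pi or Ctrl, 2 were in each Pi list and no Ctrl list (2.74%, against 2.59% of all sites) and 3 the other way (4.11%, against 4.67%). Of 37 Syne2 sites none was in each Pi list but no Ctrl list, and 2 were in each Ctrl list but no Pi list (5.41%). Of 66 Syne1 sites in GFP OE or Pi, 3 were in each GFP OE list but no Pi list (4.55%, against 5.13%) and 1 the other way (1.52%, against 3.93%), and of 34 Syne2 sites 0 and 1. Each share in Syne1 lies near or below that of the series. The comparisons share lists: GFP OE serves in 2 of them and Pi in 2.

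Of the 2 Syne2 sites in both Ctrl lists and no Pi list, 1 is that of Mir5101, and the other (chr12:76087547-76088340) also had peaks in both THOC5 OE lists and GFP OE replicate 1. Peaks that reach the microRNA were found in Ctrl replicate 1 (chr12:75909016-75909459, score 212.7, percentile 86.6) and Ctrl replicate 2 (chr12:75909007-75909422, score 207.0, percentile 89.9), and in no list of THOC5 OE, GFP OE or Pi. Each covers the whole hairpin printed above, with 87 and 96 bases before it and 274 and 237 after it. Their scores are above the lowest score of all 8 lists, and a peak of this width cannot tell the microRNA from the Syne2 transcript around it. The other 122 peaks named Mir5101 lie elsewhere in Syne2, because the annotation gives the name of the nearest start of transcription. Of the 168 Syne2 peaks, 15 (8.93%) bear the name Syne2 and 29 (17.3%) that of Esr2, the gene of oestrogen receptor beta. All 364 Syne1 peaks bear the name Syne1.

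Of 24 other genes of the LINC complex and the nuclear envelope, 7 (29.2%) had a peak in any list, against 18.5% of 21900 protein-coding RefSeq genes, and none of the 7 had one in all 8 lists, against 9.53% of all bound genes. The median length of the 24 genes was 27.9 kb, against 17.1 kb for all protein-coding genes. The SUN genes Sun1 and Sun2, whose proteins bind the KASH domain, the lamin A gene Lmna and the emerin gene Emd had no peak. Nup153, a nucleoporin of the nuclear basket, had 2 and 2 peaks for THOC5 OE, 0 and 1 for GFP OE, 2 and 2 for Pi and 2 and 0 for Ctrl. Lemd3, an inner membrane protein gene, had 1 peak in each of 4 lists: GFP OE replicate 2, Pi replicate 1 and both Ctrl lists. The others of the 7 were Lbr with a peak in 3 lists, the lamin gene Lmnb2 in 2, and Tmpo, Tmem201 and Tpr in 1 each. Among 16 genes of cytoskeletal partners 12 had a peak (75%, against the same 18.5%), with a median gene length of 55.4 kb, against 17.1 kb for all protein-coding genes. Of these, Dst, Macf1 and the dynein heavy chain gene Dync1h1 had peaks in all 8 lists. That is 3 of the 12 bound partner genes in all 8 lists, against 9.53% of all bound genes. Kif5b, a kinesin heavy chain gene that nesprins bring to the nuclear envelope, had 1 peak in each THOC5 OE list and none in GFP OE, a pattern of 6.91% of 2632 genes, and 1 peak in each Pi list and in Ctrl replicate 1.

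By its share of each list, Syne1 was most like Trio (Pearson r = 0.92 over 8 lists), Htt (0.80), Herc1 (0.72), Mdn1 (0.70) and Pcnt (0.69) among 106 other genes with at least 5 peaks per list on average, and its correlation with Syne2 was 0.47. Trio encodes a guanine nucleotide exchange factor of the cytoskeleton, and Pcnt the centrosomal scaffold pericentrin. Syne2, named here after its values were seen, was most like Macf1 (0.97), Wdfy3 (0.95), Cacna1g (0.86), Utrn (0.85) and Dop1b (0.84). These correlations describe 8 lists whose lengths all genes share.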

How the data were processed

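THOC5 immunoprecipitates were prepared with a Magna RIP kit, and their rRNA was removed, per the labels' protocols. The submitters' processing notes list FastQC, Bowtie2, MACS2, SAMtools and mm10. Per the file headers, annotatePeaks.pl (HOMER, mm10) annotated the peaks. MACS2 is a peak caller, but its role, its threshold and any use of the 8 inputs are not stated there. The score of a peak is the authors' own value as deposited, of unstated scale, and served as a rank (percentile) within its list. A list's sample came from the condition and number in its header.

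RefSeq (GRCm38.p6, the assembly of mm10) named the gene of 28582 of 28614 annotated transcripts (99.89%). Sites are peaks of the 8 lists joined where they overlap by at least 1 base, so 2 peaks of a site need not overlap each other. Position is that of a peak's middle along the RefSeq gene span. Lists are the replicates, and differences of list values were tested by two-sided exact permutation with Benjamini-Hochberg adjustment over 24 contrasts (Python 3.11.15, pandas 2.3.3, numpy 2.4.6). With 2 lists against 2 no p can fall under 0.333 and with 4 against 4 none under 0.0286, so no adjusted p here could fall under 0.114. Merging and tests were checked on simulated data whose sites lay far apart, so the merging of closely neighbouring sites was not checked. Alternatives were a threshold at the median score, equal list lengths, the nearest gene, a 50% overlap, other exon classes, the median position, leaving out each list and a replicate block. A common score floor and merging across gaps of up to 200 bases were added after seeing the data. The members and gene lists were chosen with earlier results of these data known. Named are the members, listed genes bound in all 8 lists or on 1 side of a comparison only, and the 5 genes most like Syne1. Named outside this rule, with values known, are Lemd3, Nup153, Lbr, Lmnb2, Tmpo, Tmem201, Tpr, Sun1, Sun2, Lmna, Emd, Clmn, Esr2, the genes most like Syne2, markers and single sites.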

Additional observations from a re-analysis of the deposited data

How the results depend on the processing

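Of 256 alternative values of the 24 contrasts, 43 changed direction and 213 kept it, and none passed 0.05 after adjustment (lowest adjusted p 0.229). The Syne1 difference in mean position of overexpressing cells from the others kept its direction in every alternative run (-9.26 to -2.36), and without 1 list it was -7.10 to -5.62. Causes of the changes below were not tested. With peaks at or above the median score of their list, Syne1 averaged 27.1 peaks per list with 7 sites in all 8 lists. Syne1 position then gave 0.74 (GFP OE minus Pi), and Syne1 percentile -3.18 (Pi minus Ctrl), -1.18 (GFP OE minus Pi) and -1.26 (overexpressing minus others). This setting keeps only percentiles from the middle of a list upwards, so it sets the percentile measure by construction. Syne2 exon share gave -0.69 (Pi minus Ctrl), -3.12 (GFP OE minus Pi) and -4.97 (overexpressing minus others), Syne2 position 1.54 (Pi minus Ctrl), and Syne2 percentile -0.308 (Pi minus Ctrl) and -0.855 (overexpressing minus others). With lists cut to 2572 peaks, Syne1 position gave 2.02 (THOC5 OE minus GFP OE) and Syne2 exon share -0.663 (overexpressing minus others). With the nearest gene, Syne2 exon share gave 0.245 (THOC5 OE minus GFP OE), -1.27 (Pi minus Ctrl), -1.81 (GFP OE minus Pi) and -2.32 (overexpressing minus others), Syne2 position -2.38 (THOC5 OE minus GFP OE) and Syne2 percentile -0.33 (overexpressing minus others). The common score floor gave 0.849 for Syne1 position (Pi minus Ctrl). Counting UTRs as exons gave Syne2 exon shares of 0.379 (THOC5 OE minus GFP OE), -2.70 (Pi minus Ctrl) and -0.562 (overexpressing minus others), and the median position gave -3.49 for Syne2 (THOC5 OE minus GFP OE).

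Leaving out 1 list in turn turned 12 contrasts, whose ranges follow. THOC5 OE minus GFP OE ran from -2.83 to 0.326 in Syne1 position, -11.2 to 3.84 in Syne2 exon share and -5.92 to 6.95 in Syne2 position. Pi minus Ctrl ran from -2.76 to 0.706 in Syne1 position, -1.79 to 9.63 in Syne1 percentile, -3.08 to 4.96 in Syne2 exon share and -2.34 to 7.68 in Syne2 percentile. GFP OE minus Pi ran from -10.0 to 1.24 in Syne1 exon share, -2.36 to 5.68 in Syne2 exon share and -11.6 to 1.23 in Syne2 position. Overexpressing minus other cells ran from -1.62 to 3.41 in Syne2 exon share and -1.72 to 2.13 in Syne2 percentile. Deviations of same-numbered lists correlated at -0.242 to 0.113 over 107 genes. With 2 lists per condition this cannot decide whether same-numbered lists belong together, and the labels do not say. With the replicate block, the Syne1 differences of -6.37 in position and 15.3 in percentile had an exact p of 0.0556 each (adjusted 0.667). Under neither setting could an adjusted p fall under 0.05, so no call could change. Read depth, inputs and transcript levels limit every statement, since a missing peak does not show missing binding.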
